A study of Homo sapiens with 2 samples.

Results

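Transcription factors and cofactors that specify the embryonic kidney were followed in RNA-seq libraries of HEK293 cells. They comprised 8 genes: PAX2, PAX8, LHX1, GATA3, SIX2, EYA1, SALL1 and WT1. All transcripts of these genes in the deposited tables were taken, matched to GENCODE v44 (GRCh38) by identifier without version, and summed per gene. This gave 74 of the 206696 transcripts listed and 8 of the 59026 genes matched. HEK293 is an established cell line derived from human embryonic kidney and transformed with adenovirus DNA, and the Flp-In T-Rex derivative used here carries a single genomic site for insertion of a transgene under tetracycline control. The cells carried no further treatment in the labels, and rRNA-depleted total RNA was sequenced. There was 1 group of 2 libraries, replicate 1 with 25158962 estimated counts and replicate 2 with 27143860. Whether these came from separate cultures was not stated, so the spread between them may be technical, and no comparison between conditions could be made.

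In the embryo, the kidney forms from intermediate mesoderm. PAX2, PAX8, LHX1 and GATA3 act in the nephric duct and the ureteric bud that grows from it. SIX2, EYA1, SALL1 and WT1 act in the cap mesenchyme around the bud tips, where nephron progenitors renew themselves or turn into epithelium, and WT1 later marks podocytes. EYA1 is a phosphatase and coactivator that binds SIX2 and its relatives, and the other factors bind DNA through paired, homeobox or zinc finger domains.

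The sequences at which the counted transcripts of these genes part are given first, because the libraries assigned different transcripts to them. All are from GRCh38, written 5′ to 3′ on the strand of the gene, and capitals mark the bases that one form holds and the other lacks. For SALL1 the capitals mark instead the side of the exon junction that follows the skipped exon.

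GATA3, start of an exon at chr10:8063981-8064010 (plus strand), 3 alternative bases: ttttgtttccagAAGgcagggagtgtgtga

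WT1, end of an exon at chr11:32391962-32391990 (minus strand), 9 alternative bases: actcatacagGTAAAACAAgtgcgtaaac

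PAX2, start of an exon at chr10:100827537-100827566 (plus strand), 19 alternative bases: ttccagGTTCCCCTTATTATTATAGtgccg

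SALL1, junction made when the middle exon is skipped, chr16:51151166-51151180 joined to chr16:51137538-51137552 (minus strand): tcccccggcgagatgGTACACATGGGCACT

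The GATA3 and PAX2 sites are pairs of acceptor sites, and both the lower-case bases before the capitals and the capitals end in AG. The WT1 site is a pair of donor sites. Its 9 bases encode the lysine, threonine and serine between zinc fingers for which the +KTS and -KTS forms of WT1 are named.

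Of the 8 factors, 7 were expressed in both libraries, where expressed means a gene total of at least 10 normalised counts in each. The normalised count is the authors' estimated count divided by a size factor of the library. By the same threshold 30.8% of all 59026 matched genes and 69.1% of the 19885 protein-coding genes were expressed, so the count for the factors is read against the second share. PAX8 was the exception. Gene totals of the expressed factors ran from 42.0 ± 11.5 normalised counts for PAX2 to 904 ± 81.2 for SALL1 (SD, n = 2 each), and SALL1 also led per length, as given further on.

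**Figure D1:**
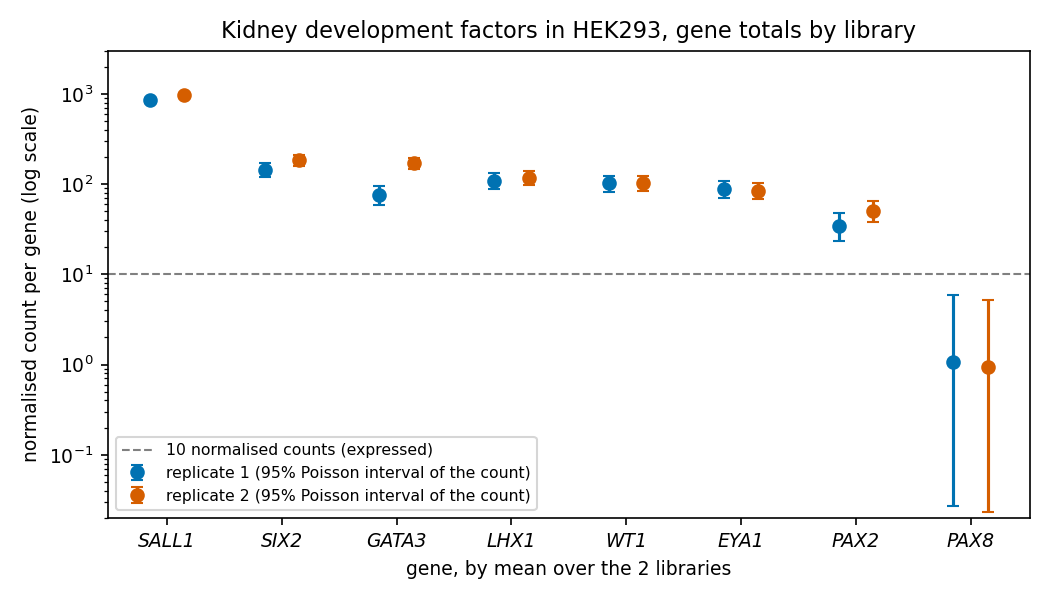
Gene totals of the 8 factors in each library, in normalised counts on a log scale. Points are libraries, bars are exact 95% Poisson intervals of the estimated counts, which cover counting error only, and the dashed line is the threshold of 10; SALL1 sits near the top of the axis, PAX8 alone lies below the line, and the points of GATA3 stand apart from each other.

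Of the factors of the duct lineage, PAX2, LHX1 and GATA3 were expressed and PAX8 was not. PAX2, a paired box factor needed for duct and bud formation (ENSG00000075891, chromosome 10, 100735396 to 100829944, plus strand), had a gene total of 33.9 normalised counts in replicate 1 and 50.1 in replicate 2. These totals rested on 32 and 54 estimated counts. PAX8, its close paralogue (ENSG00000125618, chromosome 2, 113215997 to 113278921, minus strand), held 1.06 and 0.927 normalised counts. This was 1 estimated count in each library, below the 3 counts that a count of 0 allows, and PAX8 expression was therefore not detectable at this depth. Of its 13 listed transcripts, PAX8-204 alone was above 0.

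LHX1, a LIM homeobox factor that acts in the nephric duct and in early nephrons (ENSG00000273706, chromosome 17, 36936785 to 36944612, plus strand), held 108 and 117 normalised counts, a mean of 112 ± 6.30 (SD, n = 2). GATA3, a zinc finger factor of the duct (ENSG00000107485, chromosome 10, 8045378 to 8075198, plus strand), held 74.9 in replicate 1 and 169.7 in replicate 2 (122 ± 67.0, SD, n = 2). The libraries agreed for LHX1 and did not for GATA3. GATA3 rested on 71 rounded counts in replicate 1 (95% Poisson interval 55.5 to 89.6) and 183 in replicate 2 (157 to 212), so the difference exceeded counting error.

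Factors of the cap mesenchyme were all expressed. SIX2, the homeobox factor that keeps nephron progenitors undifferentiated (ENSG00000170577, chromosome 2, 45005182 to 45009452, minus strand), held 143.9 and 184 normalised counts, a mean of 164 ± 28.1 (SD, n = 2). EYA1 (ENSG00000104313, chromosome 8, 71197433 to 71592025, minus strand) held 87.7 and 84.3, a mean of 86.0 ± 2.42 (SD, n = 2). The libraries were closer to each other for EYA1 than for SIX2.

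SALL1, a zinc finger repressor that binds the NuRD complex (ENSG00000103449, chromosome 16, 51135982 to 51152334, minus strand), reached 846 normalised counts in replicate 1 and 961 in replicate 2. With the most counts of the set, SALL1 also had the smallest counting error in proportion. WT1, a zinc finger factor of progenitors and podocytes (ENSG00000184937, chromosome 11, 32387775 to 32435564, minus strand), held 102 in each library, with a mean of 102 ± 0.301 (SD, n = 2). In a bulk culture, fewer cells that express a gene and less RNA per cell cannot be told apart for any of these values.

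Between the libraries, 6 of the 7 expressed factors were higher in replicate 2 and EYA1 was lower. The differences on the log2 scale, replicate 2 minus replicate 1, were 0.56 for PAX2, 0.35 for SIX2, 0.18 for SALL1, 0.11 for LHX1, 0.01 for WT1 and -0.06 for EYA1. Across the 13735 expressed protein-coding genes the median was -0.08, with a 5th percentile of -0.58 and a 95th of 0.61, so these 6 lay within the range of most genes. GATA3, at 1.18, lay outside it. It was the only one of the 7 that differed by more than 2-fold, which 1.94% of expressed protein-coding genes did. With 1 group of 2 libraries no test of these differences was possible.

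**Figure D2:**
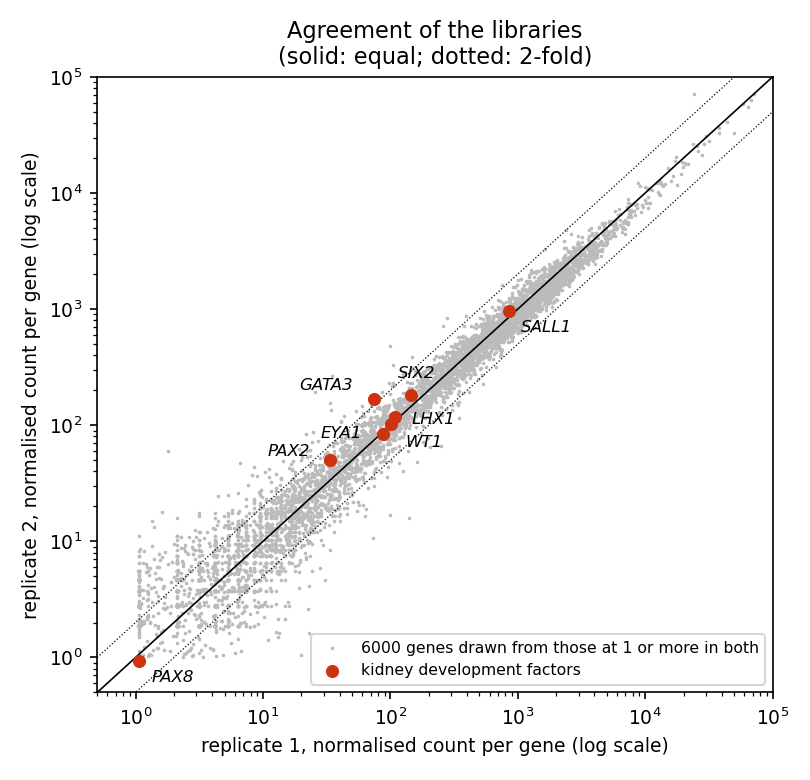
Gene totals in replicate 1 against replicate 2, in normalised counts on log axes. Grey points are genes drawn at random from those at 1 or more in each library, red points are the 8 factors, the solid line marks equal values and the dotted lines a 2-fold difference; GATA3 lies beyond the upper dotted line and the other expressed factors lie between the lines.

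To set the factors beside each other, estimated counts were divided by transcript length and scaled to 1000000 per library, and this length-normalised value was summed per gene. SALL1 had 9.70 and 11.3, a mean of 10.5 ± 1.12 (SD, n = 2). SIX2 followed with 2.71 ± 0.499, LHX1 with 1.94 ± 0.0372 and WT1 with 1.88 ± 0.655 (SD, n = 2 each). GATA3 had 1.75 ± 0.995, EYA1 1.15 ± 0.0916 and PAX2 0.694 ± 0.0218 (SD, n = 2 each). SALL1 was thus at the middle of the expressed protein-coding genes, 52.8% of which were lower, whereas the other 6 were in the lower part of that distribution. The share of genes below them was 21.6% for SIX2, 17.6% for LHX1, 17.4% for WT1, 16.6% for GATA3, 12.3% for EYA1 and 7.94% for PAX2. The median over the 8 factors was 1.82, against 9.59 over the expressed protein-coding genes.

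Of the 28 pairs of factors, 21 kept their order from library to library, with means further apart than the SDs added together. In this sense SALL1 was above all others, PAX8 below all others, and PAX2 below all but PAX8. Relative to SALL1, SIX2 was at 0.258 times, EYA1 at 0.109 times and PAX2 at 0.0661 times its length-normalised level. The 7 unresolved pairs were all in the middle of the order. They were WT1 with LHX1, SIX2, EYA1 and GATA3, and GATA3 with LHX1, SIX2 and EYA1. Among neighbours in the order, LHX1 was at 0.718 times SIX2 and resolved from it, whereas LHX1, WT1 and GATA3 did not differ beyond their spread. WT1 differed between the libraries per length, 1.42 and 2.35, although its normalised counts were equal. WT1-208, a partial transcript of 551 nt, was at 0 in replicate 1 and held 15.8 normalised counts in replicate 2, and division of the gene total by the length of the longest transcript gave 1.42 and 1.43.

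The transcripts to which these counts were assigned varied more than the gene totals. Of the 74 transcripts, 19 were above 0 in both libraries, 18 in 1 library only and 37 in neither. SIX2 has 1 transcript, SIX2-201. Of the other 6 expressed factors, 3 had the same leading transcript in both libraries (PAX2-201, LHX1-201 and SALL1-201) and 3 had not (GATA3, WT1 and EYA1). The leading transcript was the same in 82.1% of the 12743 expressed protein-coding genes with several transcripts. When transcripts with an identical coding sequence were joined, the factors again divided into 3 and 3, against 85% of 12544 genes with the same leading coding sequence. The low totals of the factors stand beside this count: apart from SALL1, the expressed factors with several transcripts rested on 32 to 183 estimated counts per library.

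**Figure D3:**
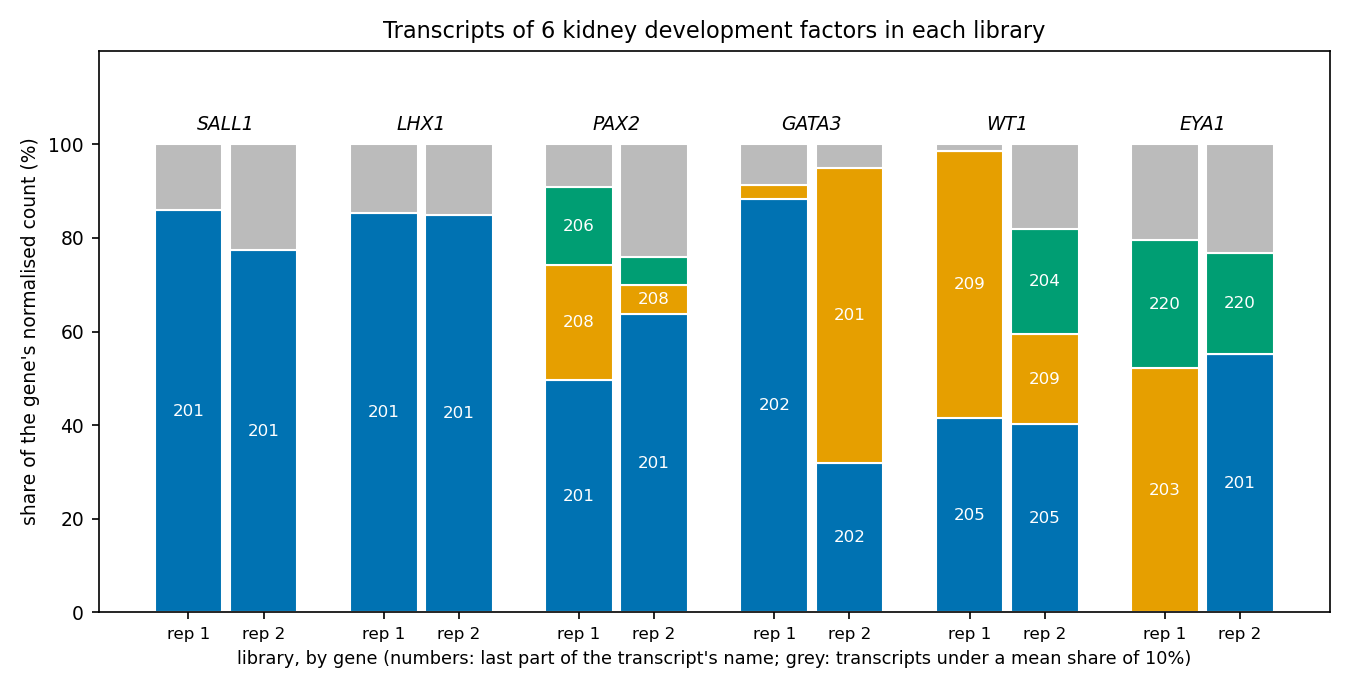
Share of each gene's normalised count assigned to its transcripts in each library, for the 6 expressed factors with several transcripts. Colours are transcripts whose share averages 10% or more, named by the last part of their name, and grey is the rest; the leading transcript is the same in both bars of SALL1, LHX1 and PAX2 and changes for GATA3, WT1 and EYA1.

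LHX1-201 was the steadiest leader, with 85.4% of the LHX1 total in replicate 1 (95% exact interval 76.9 to 91.5%) and 84.8% in replicate 2 (77.5 to 90.7%). SALL1-201 and SALL1-202, which share 1 coding sequence of 3972 nt, together held 92.6% in replicate 1 (90.6 to 94.3%) and 77.3% in replicate 2 (74.7 to 79.9%). The fall lay beside SALL1-205, which starts at another first exon and was listed at 0 in replicate 1 and at 147 normalised counts in replicate 2. Its share was thus 0 there (up to 0.460%) and 15.3% in the second library (13.2 to 17.7%), by counting error only. Of the 4067 words of 50 nt in SALL1-205, 215 (5.29%) are absent from SALL1-201, so few reads can tell SALL1-205 apart. In the other direction, 1233 of the 5085 words of SALL1-201 are absent. The share of SALL1-205 is thus one of whole transcripts and not of reads across its first exon. The counted versions of SALL1-201, SALL1-202 and SALL1-205 also differ from those of GENCODE v44. The part of shared reads in this difference was not tested. Transcripts that hold the SALL1 middle exon of 3458 nt (chr16:51138688-51142145), which codes for most of the zinc fingers, were steady. They held 93.4% and 92.9% of the counts that bear on that exon, and the rest were on SALL1-204, which has the junction printed above. These are shares of counts, and SALL1-204 is only 565 nt long. Per length, SALL1-204 held 36.6% of the SALL1 total in replicate 1 and 39.2% in replicate 2.

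PAX2-201 led with 49.6% in replicate 1 (31.9 to 68.1%) and 63.7% in replicate 2 (48.7 to 75.7%), and PAX2-208, a partial transcript, followed with 24.6% and 6.26%. PAX2-206, which retains an intron, held 16.7% and 5.91%. At the PAX2 acceptor pair, transcripts with the 19 bases held 100% of 16 rounded counts in replicate 1 (79.4 to 100%) and 78.0% of 44 in replicate 2 (62.2 to 88.5%). The intervals overlap and cover counting error only, and the difference was not tested. Of the 4121 words of 50 nt in PAX2-204, 49 (1.19%) are absent from PAX2-201, so few reads can tell PAX2-204 apart. The share with the 19 bases is thus one of whole transcripts and not of reads across the acceptor pair.

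For GATA3 the difference between the libraries lay in GATA3-201. GATA3-202 held 66.2 and 54.2 normalised counts, while GATA3-201 went from 2.17 in replicate 1 to 106.8 in replicate 2. The transcripts differ in their coding sequence by the 3 bases AAG printed above, 1332 nt with them and 1329 nt without. The share with AAG was 96.8% of 65 rounded counts in replicate 1 (89.3 to 99.6%) and 33.7% of 174 in replicate 2 (26.4 to 40.9%). These intervals do not overlap, and they cover counting error only. Of the 2601 words of 50 nt in GATA3-201, 47 (1.81%) are absent from GATA3-202, so few reads can tell GATA3-201 apart. In the other direction, 480 of the 3034 words of GATA3-202 (15.8%) are absent from GATA3-201. The share with AAG is thus one of whole transcripts and not of reads across the 3 bases. The version of GATA3-202 in the tables also differs from that of GENCODE v44. The part of this division of reads in the difference of the shares was not tested. The gene total is a sum over both transcripts and does not depend on how reads are divided between them.

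WT1 counts fell mainly on 3 transcripts, each with 10% or more on average. WT1-205, which begins at the first exon of 840 nt (chr11:32434700-32435539) and holds both alternative stretches of WT1, had 41.5% in replicate 1 (31.7 to 52.2%) and 40.3% in replicate 2 (30.8 to 49.8%). WT1-209, which begins at a downstream first exon of 284 nt (chr11:32430530-32430813) and lacks the cassette exon, had 57.0% (46.8 to 67.3%) and 19.1% (12.2 to 27.7%). WT1-204, the -KTS counterpart of WT1-205, was at 0 in replicate 1, which gives an exact interval up to 3.77%, and had 22.5% in replicate 2 (15.3 to 31.7%). WT1-205 was thus steady while the other 2 were not.

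Summed over the annotated transcripts, the +KTS form was the larger in both libraries, with 98.5% of 96 rounded counts in replicate 1 (94.3 to 99.97%) and 74.9% of 110 in replicate 2 (65.4 to 82.4%). The 51 nt cassette exon (chr11:32416490-32416540) was in 42.2% of the counts (32.0 to 52.7%) of replicate 1 and in 80.4% (71.6 to 87.4%) of those of replicate 2. In replicate 1 these counts were on WT1-205 and WT1-209 alone, so the first exon of WT1-205 had the same share, 42.2%. Cassette exon and first exon were therefore not measured apart there. The value of replicate 2 includes the partial transcript WT1-208. WT1-204 differs from WT1-205 by 47 of its 2065 words of 50 nt (2.28%). In the other direction, 964 of the 2982 words of WT1-205 (32.3%) are absent from WT1-204. The +KTS share is thus one of whole transcripts and not of reads across the donor pair.

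EYA1 counts were assigned to a different coding transcript in each library. EYA1-203 (coding sequence of 1677 nt) held 45.8 normalised counts in replicate 1 but was at 0 in the other library, and EYA1-201 (1758 nt) held 0 and 46.5. In each library the leader held about the same share, 52.2% (40.6 to 62.9%) and 55.1% (44.2 to 65.4%). EYA1-220, for which no coding sequence is defined, held 27.3% and 21.7%. Transcripts annotated as protein-coding made up 64.7% ± 13.03 of EYA1 (SD, n = 2), below the median of 92.6% over expressed protein-coding genes. The other values were 81.0% ± 9.72 for PAX2, 87.1% ± 3.20 for LHX1, 98.0% ± 0.779 for WT1 and 99.4% ± 0.422 for SALL1 (SD, n = 2 each).

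Each factor belongs to a family whose members can bind like sequences, so the factors were ranked among their paralogues per length. In 5 of the 7 families a paralogue that is not a factor of this set was higher by more than the spread. PAX6, best known from eye and brain, had a length-normalised value of 11.3, PAX3 of the neural crest and muscle 8.07 and PAX9 3.26, or 16.3, 11.6 and 4.69 times PAX2. PAX2 made up 2.93% ± 0.0635 of the family (SD, n = 2), which ranked 4 of 9 genes. PAX1 was at 0.258 and PAX5 at 0.0769, and PAX4 and PAX7 were listed at 0. PAX8, with 1 count per library, cannot be told apart from PAX4 and PAX7.

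LHX1 made up 7.43% ± 0.426 of the LIM homeobox family (SD, n = 2), which ranked 5 of 12 genes. ISL2 at 8.65, LHX2 at 5.00, LHX4 at 3.91 and LMX1B at 3.09 were higher, and ISL2, a factor of motor neurons, was 4.45 times LHX1. The lower members were LHX6 at 1.24, LHX9 at 1.05, ISL1 at 0.949, LHX8 at 0.328, LHX5 at 0.0505 and LHX3 at 0.00800, and LMX1A was listed at 0. GATA3 ranked 4 of 6 genes, with 5.65% ± 2.20 (SD, n = 2). GATA6 at 10.1, GATA4 at 9.66 and GATA2 at 8.24 were 5.77, 5.52 and 4.71 times GATA3 and resolved from it despite its spread. GATA1, of red cells, was at 0.0616 and GATA5 at 0.00728.

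SIX2 and EYA1 were also outranked. SIX2 was below SIX4, which had a length-normalised value of 7.55, or 2.79 times SIX2. SIX5 at 2.38 was not resolved from SIX2, SIX3 was at 0.127 and SIX6 was listed at 0. EYA1 was the lowest of 4 EYA genes, with 3.90% ± 0.0281 of their sum (SD, n = 2). EYA3 at 12.3, EYA4 at 11.1 and EYA2 at 4.86 were 10.7, 9.69 and 4.24 times EYA1.

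SALL1 was the highest of its family, with 44.3% ± 2.31 of the sum (SD, n = 2), and SALL2 at 7.90, SALL3 at 5.07 and SALL4 at 0.191 were all lower by more than the spread. WT1 was set beside the EGR genes, whose zinc fingers are its nearest relatives. It made up 25.6% ± 0.0111 of the sum (SD, n = 2), and EGR1 at 3.44 and EGR3 at 1.502 were not resolved from it. EGR2 at 0.511 and EGR4 at 0.0305 were lower.

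**Figure D4:**
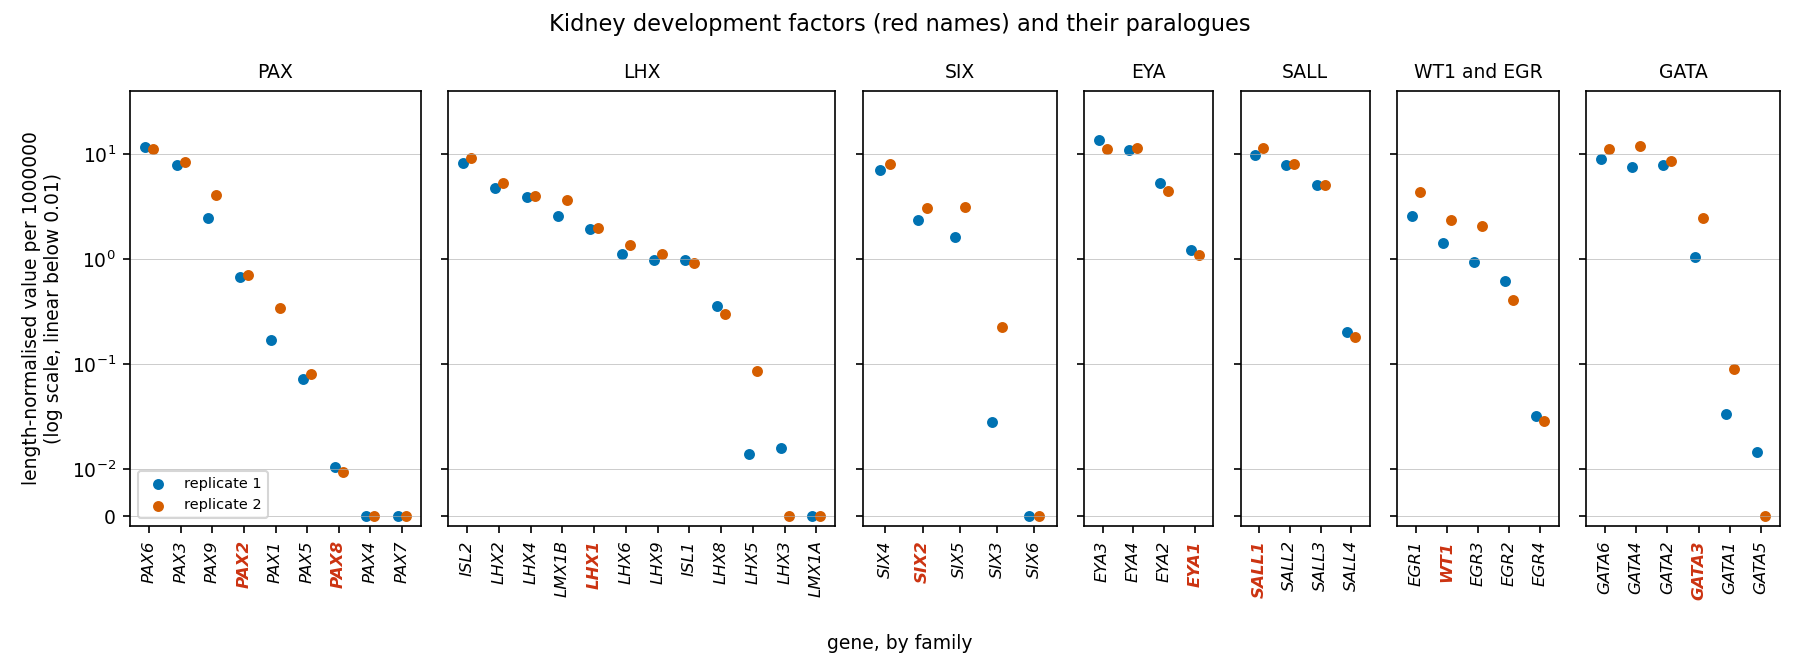
Length-normalised value per 1000000 of each factor (red names) and the paralogues reported here in each library, on a log scale that is linear below 0.01. Points are libraries; SALL1 leads its family, EYA1 is the lowest of its family, and PAX2, LHX1 and GATA3 lie below several paralogues.

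The neighbouring and overlapping genes were read because it is not given in the sources used here whether reads were counted by strand. Of 18 genes that overlap a factor or start within 5 kb of its start, 10 overlap, 3 were expressed and 6 were listed at 0 in both libraries. LHX1-DT, a lncRNA on the opposite strand whose start is 115 bp from that of LHX1, held 68.8 and 54.7 normalised counts. WT1-AS, whose start is 46 bp from that of WT1, held 12.3 and 15.1. GATA3-AS1 held 14.8 in replicate 1 and 28.7 in replicate 2, so it was higher in the same library as GATA3. PAX8-AS1 overlaps PAX8, and 18.2% of the words of 50 nt of PAX8 occur in it on the opposite strand. PAX8-AS1 held 4.23 and 7.42 and was not expressed by the threshold. No word of 50 nt of PAX2, SIX2, WT1 or GATA3 occurs in a transcript of another gene on either strand. LHX1 shares 6.48% of its words on the opposite strand with a lncRNA gene that was listed at 0 in both libraries (ENSG00000276707), and EYA1 shares 2.75% there with several genes. On its own strand LHX1 shares 0.0813% with LHX5 and SALL1 0.581% with the pseudogene SALL1P1, and EYA1 shares 0.144% with several genes.

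Genes of the lineages in which the factors act were taken as lists, to describe the setting of the factors in these cells. Over all lists apart from the factors and 5 reference genes, 87 of 140 genes (62.1%) were expressed, against 69.1% of protein-coding genes. The lists are unequal. Of the nephron progenitor genes, 17 of 18 were expressed, with a median length-normalised value of 9.59. The median was also 9.59 over the expressed protein-coding genes and 3.91 over all protein-coding genes. IGF2BP1, an RNA-binding protein of embryonic tissue, had 50.2, CRABP2, which carries retinoic acid, 31.5, and HOXA11, a homeobox factor of the metanephric mesenchyme, 22.8. MEOX1 was the exception. CITED1 (4.90), OSR1 (1.67), GDNF (1.23), the ligand of RET, and WNT4 (1.27) were expressed at levels like those of the factors.

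Of the duct and bud genes, 11 of 15 were expressed, with a median of 2.28. BMP7 was the highest at 42.7, followed by SPRY1, an inhibitor of RET signalling, at 13.1 and TFAP2A at 9.65. RET itself, the receptor of the bud tip, was low at 0.690, with 62.4 and 85.3 normalised counts. SOX9 and TFAP2B were listed at 0. Of the stroma genes, 7 of 9 were expressed, among them the retinoic acid enzyme gene ALDH1A2 at 86.4 and TBX18 at 14.003.

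Genes of differentiated nephrons were fewer. Of the podocyte genes, 5 of 11 were expressed, with PODXL at 17.3, CD2AP at 12.9 and LMX1B at 3.09 the highest. NPHS1, which encodes the slit diaphragm protein nephrin, held 5.29 and 1.85 normalised counts, and FOXC2 was listed at 0. WT1 was thus expressed in libraries in which these podocyte genes were not. Of the tubule genes, 5 of 17 were expressed, with LRP2 at 14.7, GATA2 at 8.24 and SLC5A2 at 2.13 the highest. The libraries did not agree for SLC5A2, which had 3.64 in replicate 1 and 0.621 in replicate 2. AQP2, CALB1 and UMOD were listed at 0.

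Binding partners of the factors were nearly all present, 18 of 19, with a median of 22.8. By the same threshold 69.1% of protein-coding genes were expressed, and the median over those expressed was 9.59. RBBP7 at 311, RBBP4 at 161 and CTNNB1 at 85.3 were the highest. RBBP7 and RBBP4 are subunits of the NuRD complex that SALL1 recruits, as are HDAC2 at 78.8 and CHD4 at 76.0. LDB1, the cofactor of LIM homeobox proteins, was at 26.5, and its paralogue LDB2 was not expressed. The GATA cofactor genes ZFPM1 and ZFPM2 were at 1.46 and 2.80, and DACH1, a partner of EYA proteins, was at 3.05.

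Few genes of other cell types were expressed. Of the neuronal and adrenal genes, 3 of 10 were expressed, NEFL at 22.3, INA at 4.20 and NEFM at 0.281. Summed over that list, length-normalised values reached 23.9 and 30.6 in the libraries. Of the genes of blood, endothelium, liver and muscle, 2 of 12 were expressed, HBB with 179 and 182 normalised counts and MYOD1 with 45.5 and 29.7. PTPRC, CD3E, CDH5 and ALB, which define leukocytes, T cells, endothelium and hepatocytes, were listed at 0 in both libraries. That list summed to 21.9 in replicate 1 and 22.0 in replicate 2, of which HBB made up 20.2 and 20.9. Set against the labelled embryonic kidney origin, 17 of 18 progenitor and 7 of 9 stroma genes were expressed, beside 69.1% of protein-coding genes. For podocytes it was 5 of 11 genes and for tubules 5 of 17, so these lists were mixed. All lists were chosen with earlier results of these data known, so the counts describe the cells and do not test their origin. NPHS1 of podocytes and UMOD, CALB1 and AQP2 of the loop, distal tubule and collecting duct were at or near 0. PODXL and CD2AP of the podocyte list and LRP2 and GATA2 of the tubule list were expressed.

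**Figure D5:**
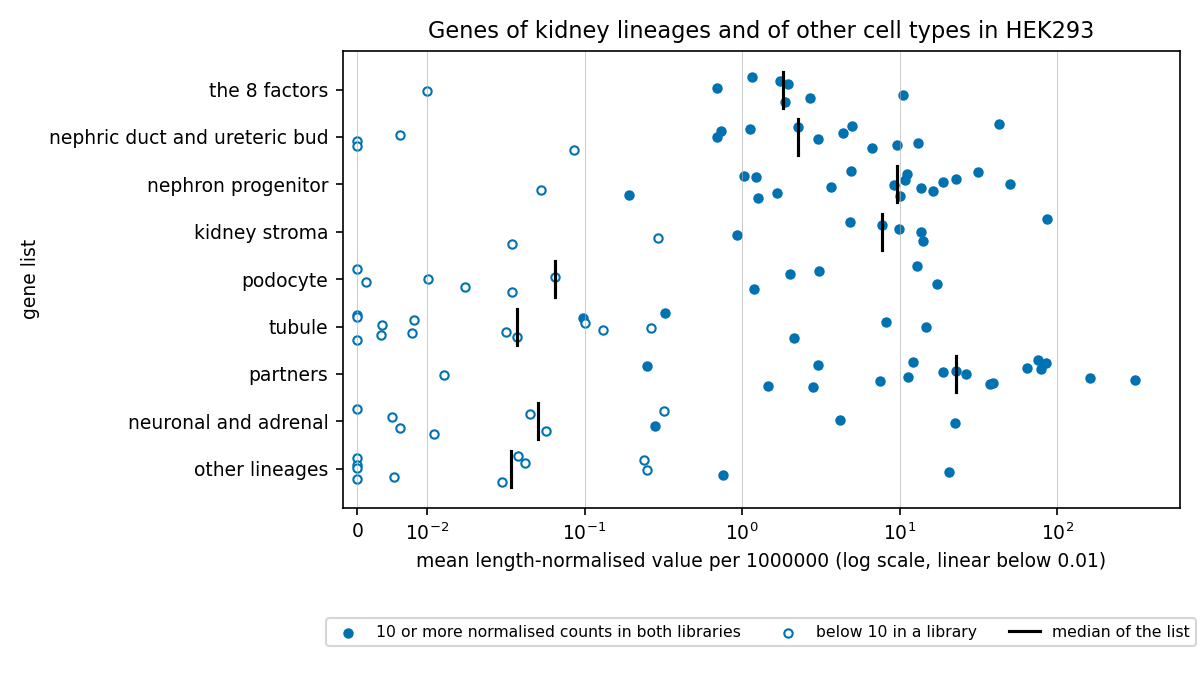
Mean length-normalised value per 1000000 of each gene of the lists, on a log scale that is linear below 0.01. Filled points are genes with at least 10 normalised counts in both libraries, open points are genes below 10 in a library, and black bars are list medians; progenitor, stroma and partner genes are mostly filled, and podocyte, tubule and other lineage genes mostly open.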

How the data were processed

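Per the labels, rRNA-depleted total RNA of HEK293 Flp-In T-Rex cells was made into TruSeq libraries. The submitters' processing notes name FastQC, STAR 2.7.0d, RSEM 1.3.3 and R 3.6.3, and the study names GRCh38 with Ensembl release 104; whether reads were counted by strand is not given in the sources used here. Deposited by the authors were an estimated count per transcript (RSEM) and a normalised signal, obtained from it by division by a library-wide size factor, 0.9451 for replicate 1 and 1.078 for replicate 2. A table of METTL8 transcripts held the same values and was not used.

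Transcripts were matched to GENCODE v44, which left out 4479 of 206696. Of the 74 transcripts of the factors, 19 had another version there, and lengths and coding sequences are those of GENCODE v44. Transcripts of genes in GENCODE v44 but not in the tables were not analysed here. Length-normalised values are estimated counts divided by transcript length, scaled to 1000000 per library over the matched transcripts, with no correction for effective length. Shares of a site use the transcripts that hold either form. Intervals are exact 95% intervals (Clopper-Pearson for shares, Poisson for counts) on rounded estimated counts and cover counting error only. The members and lists were chosen with earlier results of these data known. Named genes were all factors, those of their transcripts whose share averaged 10% or more, neighbours, paralogues, and of each other list the 3 highest expressed genes and those listed at 0; further list genes (MEOX1, CITED1, OSR1, GDNF, WNT4, RET, NPHS1, HDAC2, CHD4, LDB1, LDB2, ZFPM1, ZFPM2 and DACH1) and transcripts below that share (PAX8-204, SALL1-202, SALL1-204, SALL1-205 and WT1-208) were chosen after their values were seen. Some genes stand in several lists, and a few list genes are counted but not reported here. The expression call was tested on simulated data. Python 3.11.15, numpy 2.4.6, pandas 2.3.3, scipy 1.17.1 and matplotlib 3.10.9 were used.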

Additional observations from a re-analysis of the deposited data

Results flagged for a closer look

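Transcripts with no match in GENCODE v44 entered none of the gene totals. Their part of a library's estimated counts was 3.134% for replicate 1 and 3.166% for replicate 2. They are given here because they hold signal that no gene total used, and these transcripts were not analysed further.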

How the results depend on the processing

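No paired analysis was possible because the libraries form 1 group. At a threshold of 100 normalised counts 4 factors were expressed in both libraries (LHX1, SIX2, SALL1 and WT1). At 1 length-normalised unit per library 6 were, without PAX2 and PAX8, and at 1 normalised count, with protein-coding transcripts only and in each library alone the count was 7. Settings of length left 19 to 24 of the 28 pairs called, and no called pair reversed. The effective length (length minus 200 nt) lost PAX2 with GATA3 and LHX1 with SIX2, and the levels themselves depended on the scale, with SALL1 at 30.8 over protein-coding transcripts and 2.91 by effective length. Divided by length, 2 factors in place of 3 had the same leading coding sequence in both libraries: for PAX2, PAX2-208 led in replicate 1 with 25.2%, against 21.3% for PAX2-201. By mean share EYA1-220 then led EYA1 and WT1-209 led WT1. Leaving out a library gives no value for the order of pairs or the agreement of leaders. Of 64 list counts under other settings, 52 stayed within 1.5 times the reported count, 3 rose and 9 fell. Depth limits transcripts: a factor with 32 counts leaves a transcript at 0 an exact interval of up to 10.9%.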
